A study of Mus musculus with 11 samples.

Results

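A set of 10 genes that regulate transcription in male germ cells, Mybl1, Brdt, Taf7l, Tbpl1, Rfx2, Sox30, Sox5, Crem, Fhl5 and Kif17, was followed in mouse testis that lacks either iron regulatory protein. They were taken by name from a table of 24411 genes, all 10 were found, and all 10 passed the filter on low counts. None of the 10 members differed between genotypes at an adjusted p under 0.05, a threshold that 1.02% to 4.69% of all tested genes passed by comparison, and the 95% intervals of the fold of all 30 member tests lay between 0.837-fold and 1.17-fold. Furthest from WT were Mybl1 and Taf7l in Irp1-/-, at 0.915-fold and 0.918-fold of WT, with adjusted p of 0.168 and 0.393 by edgeR. Without Irp1-/- replicate 7 their log2 fold changes were -0.11 and -0.17, so their order rests on that sample.

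Polyadenylated RNA of whole testis from mice of 20 weeks was sequenced in 4 WT, 4 Irp1-/- and 3 Irp2-/- samples. Irp1-/- mice carry a global deletion of Aco1, which encodes IRP1 (allele tm1Roua, C57Bl/6J background), and Irp2-/- mice carry a global deletion of Ireb2, which encodes IRP2. The WT mice were described as littermates of the Irp1-/- line, and the sources used here do not say how the Irp2-/- mice were bred. The mice received no treatment, and each sample was taken as 1 mouse, which the labels do not state, so p-values measure the spread between samples. Both deletions act in every cell of the mouse, so an effect within germ cells and one through the somatic cells cannot be told apart here. The samples held between 15902473 and 22451417 counts, and a member had between 585 and 13047 counts in a sample. Levels are given as CPM, counts scaled to a common library size, with library sizes set by TMM, a method that balances the bulk of genes between samples. Aco1 averaged 11.8 ± 1.37 CPM (SD, n = 4) in WT against 8.6 ± 0.636 CPM (SD, n = 4) in Irp1-/-, a log2 fold change of -0.45 (edgeR adjusted p = 0.0158). Ireb2 averaged 140 ± 5.91 CPM (SD, n = 4) in WT against 62.1 ± 0.803 CPM (SD, n = 3) in Irp2-/-, a log2 fold change of -1.16 (edgeR adjusted p = 2.8e-13). The targeted gene kept part of its reads in both lines, and the Aco1 values came closest at 9.15 CPM in Irp1-/- and 9.78 CPM in WT. The Aco1 call was lost when Irp1-/- replicate 6 was left out, and likewise for WT replicate 2, 3 or 4 (adjusted p between 0.052 and 0.075).

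Spermatogenesis runs from spermatogonia through meiotic spermatocytes to round and then elongating spermatids, and each step has its own transcription factors. A-MYB, the product of Mybl1, acts in pachytene spermatocytes on genes of meiosis and of piRNAs, the small RNAs that protect the germ line. BRDT is the testis-specific member of the BET family of proteins that bind acetylated histones. TAF7L and TBPL1 (also called TRF2 or TLF) are germ cell relatives of components of the basal transcription machinery. RFX2 and SOX30 act around the end of meiosis and in early spermatids, RFX2 mainly on genes of cilia and of the sperm flagellum. CREM switches on genes of round spermatids, FHL5 (also called ACT) is its coactivator, and the kinesin KIF17 governs where FHL5 lies in the spermatid.

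The members' promoters were searched for the letters that families of such factors are known to bind. RefSeq promoters of GRCm38.p6, from 250 bases before the start to 50 after it, were on hand for 8 members, with 2 for Fhl5. Crem and Mybl1 were the other members. Motifs of 6 kinds were searched on both strands: the cAMP response element TGACGTCA and its core TGACG, the MYB core CAGTTG, the RFX motif GTTGCC, the SOX core AACAAT and the TATA box TATAAA. The core is part of the full element, so a full element counts in both searches. Of 32851 promoters, 1.79% held the full cAMP response element, 20.8% its core, 13.7% the MYB core, 12.5% the RFX motif, 10.7% the SOX core and 13.6% the TATA box. The 4 stretches are printed because they hold letters bound by the families of CREM, RFX2 or A-MYB, in the case of Rfx2 its own family, with those letters and the TATA box in capitals and each read along its gene's strand.
Kif17, chr4:138262151-138262200 (+), cAMP response element and RFX motif: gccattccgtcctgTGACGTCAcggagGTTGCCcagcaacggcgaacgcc
Rfx2, chr17:56831104-56831143 (-), RFX motif: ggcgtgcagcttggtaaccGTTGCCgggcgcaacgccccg
Sox5, chr6:143947107-143947146 (-), RFX motif on the opposite strand: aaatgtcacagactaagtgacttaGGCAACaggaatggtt
Taf7l, chrX:134476621-134476665 (-), MYB core and TATA box: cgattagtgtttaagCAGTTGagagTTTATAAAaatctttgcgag

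Of the 8 members with a promoter on hand, only Kif17 held the full cAMP response element. The first base of this element lay at -86 from the start, with an RFX motif at -73. The Kif17 window, chr4:138262001-138262300, lies within the annotated gene, which begins at chr4:138250435. The promoter of Rfx2 held the RFX motif at -116 and the core of the cAMP response element at -224. The RFX motif lay at -16 in that of Sox5, which is the promoter of a short Sox5 transcript within the gene. Taf7l held the MYB core at -160 and the letters of the TATA box at -148 and, on the opposite strand, at -150. The Fhl5 promoter at chr4:25242803-25243102 held the SOX core at -44 and again at 24 bases after the start. No motif of the 6 was found in the other Fhl5 promoter or in these windows of Brdt, Tbpl1 and Sox30. A match of this kind describes letters only. The motifs are short, and all but the full cAMP response element (1.79% of promoters) are common.

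The 10 genes differed widely in level. Over the 11 samples their mean CPM ran from 37.3 for Taf7l to 545 for Kif17, and 8 of the 10, all but Taf7l and Mybl1, stood at or above the percentile of 91.6 that Fhl5 held among 16406 tested genes. Levels of different genes were compared as CPM per kb of the longest coding transcript (GENCODE M21, mm10). Per kb, Kif17 stood at 158, Rfx2 at 149, Fhl5 at 144, Sox30 at 118, Tbpl1 at 87.3, Brdt at 70.5, Crem at 64, Sox5 at 24.4, Taf7l at 19.3 and Mybl1 at 16.4. Kif17 and Rfx2 overlapped in range, as did Rfx2 and Fhl5, Brdt and Crem, and Taf7l and Mybl1. The other neighbours in this order did not overlap over the 11 samples. The place of Sox5 rests on the transcript chosen: per kb of its short transcript of 1.734 kb it stood at 102 (range 94.4 to 109), since its longest has 7.243 kb.

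Most members exceeded their relatives in CPM per kb. Counts of whole testis do not show in which cells a relative is expressed. Tbpl1 was 9.46 times Tbp per kb (median over samples), and Tbp encodes the TATA-binding protein found in all cells. That ratio rests on a longest Tbp transcript of 12.794 kb, against 2.873 kb for Tbpl1. In WT, Tbpl1 averaged 257 CPM and Tbp 121 CPM. The ratios to Creb1 and Rfx3 below likewise rest on long transcripts, of 8.364 and 9.146 kb. Per kb, Taf7l was 2.68 times Taf7, and Mybl1 was 4.08 times Mybl2 and 166 times Myb. Rfx2 was 3.8 times Rfx1, 4.97 times Rfx4 and 28.3 times Rfx3. Crem was 30.9 times Creb1 but 1.49 times Atf1, another gene of this family. In 2 cases the relatives went the other way in 11 of 11 samples: Fhl5 was 0.181 of Fhl4, itself a testis gene, and Brdt was 0.718 of Brd2. Brdt was 1.54 times Brd3. The kinesin Kif17 was 3.93 times Kif3a and 2.84 times Kif3b, motors of cilia.

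**Figure D1:**
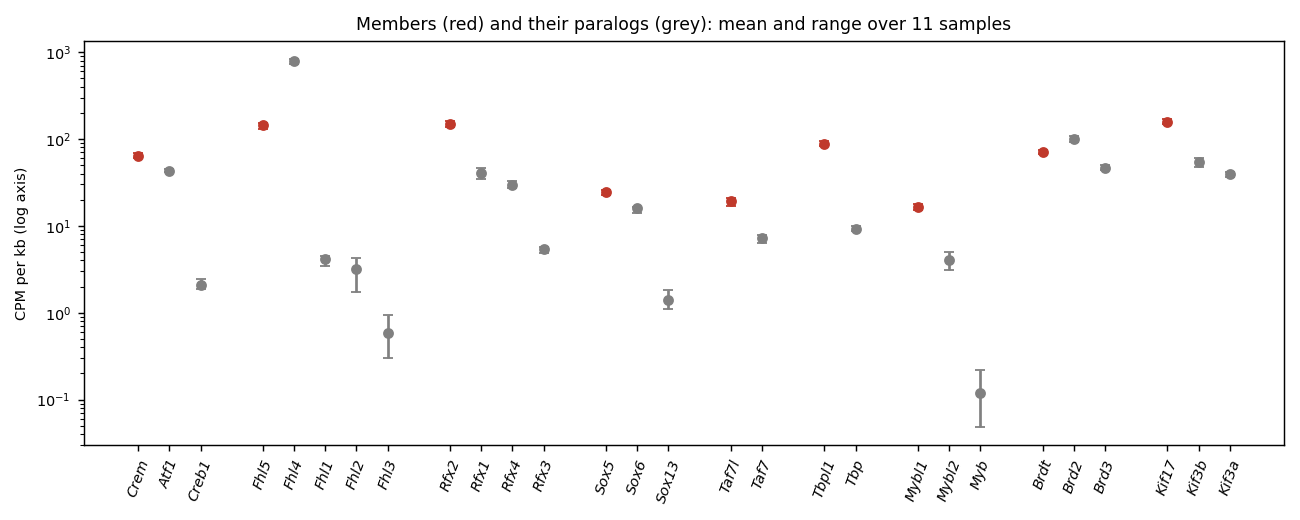
Level in CPM per kb of the longest coding transcript (log axis) of each member (red) and its relatives (grey), with the mean and the lowest and highest of 11 samples. Members stand above all relatives shown except Fhl4 (799 per kb against 144 for Fhl5) and Brd2 (98.8 per kb against 70.5 for Brdt).

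The samples varied little. Within a genotype the coefficient of variation of a member ran from 2.72% for Brdt to 5.75% for Taf7l, with a median of 4.66%, against 8.12% over all tested genes and 4.52% over those at least as high as the lowest member. The highest sample was under 1.3 times the lowest for all 10 members, genotypes included. WT replicate 1 was the highest of the 11 samples for 5 members, and Irp1-/- replicate 7 was the lowest for 4.

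**Figure D2:**
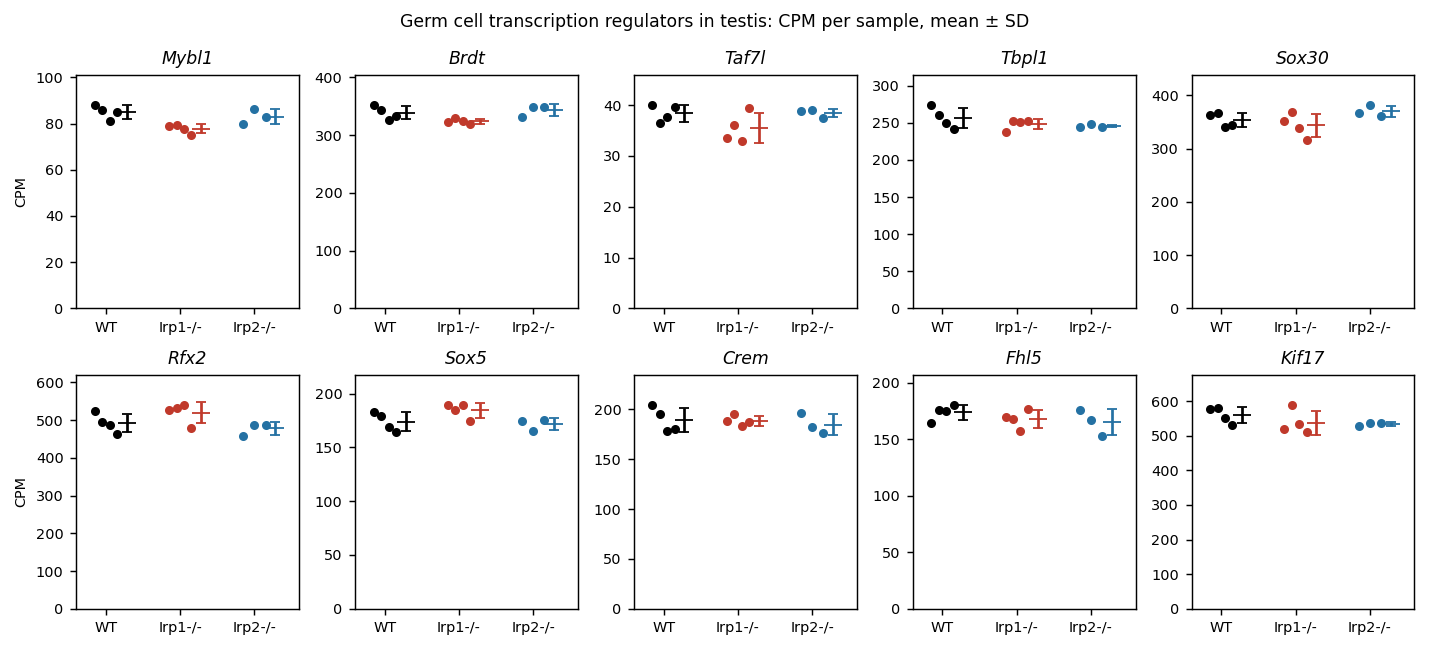
CPM of each member in the 4 WT, 4 Irp1-/- and 3 Irp2-/- samples (points), with the mean and SD of each genotype beside them and every axis starting at 0. Genotypes lie close together in every panel, and only for Mybl1 do the Irp1-/- samples (75.1 to 79.4 CPM) all lie under the WT samples (80.9 to 88).

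Mybl1, which lies on chromosome 1 (chr1:9667415-9700209, mm10), had 79.1, 79.4, 77.8 and 75.1 CPM in Irp1-/-, 88, 85.8, 80.9 and 85 in WT, and 79.8, 86.2 and 82.9 in Irp2-/-. The Irp1-/- samples all lay under the lowest WT and the lowest Irp2-/- sample, while Irp2-/- and WT overlapped. Irp1-/- was at 0.915-fold of WT (log2 fold change -0.13, SE 0.042, 95% interval -0.21 to -0.04), with an unadjusted p of 0.00549 and an adjusted p of 0.168 by edgeR. Groups that did not overlap in this comparison made up 6.59% of all tested genes, and Mybl1 was the 1 of 10 members among them. In Irp2-/- the log2 fold change from WT was -0.03 (95% interval -0.13 to 0.07). Between the knockouts it was -0.09 for Irp1-/- over Irp2-/- (95% interval -0.20 to 0.01, edgeR adjusted p = 0.372), so the difference between the effects did not pass the test.

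Markers of spermatocytes, the cells in which Mybl1 acts, stood apart in the same comparison. The summed level of 7 such genes (Sycp1, Sycp2, Sycp3, Hormad1, Tex101, Spo11 and Meiob) was 1010 to 1056 CPM in Irp1-/-, 1060 to 1093 in WT and 1058 to 1087 in Irp2-/-. None of the 7 passed the test in Irp1-/- against WT. Of them, 6 had a log2 fold change below 0, and their median was -0.08 beside -0.00 over all genes. Groups did not overlap between these genotypes for 4 of the 7 markers, against 6.59% of all tested genes. Divided by that sum, Mybl1 was 76.1 ± 3.41 per 1000 (SD, n = 4) in Irp1-/- and 79 ± 3.73 (SD, n = 4) in WT, and the groups overlapped. Divided by the summed markers of round spermatids, it was 69.3 ± 2.08 (SD, n = 4) against 77.9 ± 1.72 (SD, n = 4), and they did not. In whole testis, fewer cells of a type and less RNA per cell cannot be told apart. These ratios, the member's CPM per 1000 CPM of the markers, were chosen after the values had been seen. The share of all genes whose ratio to these markers separates the genotypes was not counted.

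Brdt (chr5:107331159-107387058) had 322, 329, 324 and 320 CPM in Irp1-/-, 352, 344, 326 and 333 in WT, and 332, 349 and 349 in Irp2-/-. The Irp1-/- samples lay under all Irp2-/- samples but overlapped WT at 329 against 326. The log2 fold change was -0.07 in Irp1-/- (95% interval -0.14 to 0.01) and 0.02 in Irp2-/- (-0.07 to 0.11) against WT. Between the knockouts it was -0.09 (-0.18 to 0.00), with an edgeR adjusted p of 0.342. Brdt and Mybl1 were the 2 of 10 members whose groups did not overlap between the knockouts, where 15.1% of all tested genes behaved so. Divided by the round spermatid markers, Brdt was 288 ± 7.79 per 1000 (SD, n = 4) in Irp1-/- and 311 ± 4.57 (SD, n = 4) in WT, with no overlap. Divided by the spermatocyte markers, it was 316 ± 9.33 (SD, n = 4) against 315 ± 15.6 (SD, n = 4), and the groups overlapped. For the members other than Brdt and Mybl1, these ratios overlapped between Irp1-/- and WT with both sets of markers.

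Taf7l, on the X chromosome (chrX:134460118-134476490), was the weakest by CPM. It had 33.5, 36, 32.9 and 39.5 CPM in Irp1-/-, 40, 36.4, 37.7 and 39.6 in WT, and 38.8, 39 and 37.5 in Irp2-/-. In all, 3 of the Irp1-/- samples lay under all WT samples and replicate 7 lay among them. The log2 fold change of Irp1-/- over WT was -0.12 (SE 0.058, 95% interval -0.24 to -0.00), with an unadjusted p of 0.0444 and an adjusted p of 0.393 by edgeR. Against WT the Irp2-/- value was 0.00 (95% interval -0.12 to 0.12). The median over 646 tested X-linked genes was 0.10 in Irp1-/- and -0.04 in Irp2-/- against WT, so in Irp1-/- Taf7l lay on the other side of 0 from its chromosome.

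Tbpl1 (chr10:22703879-22731938), needed for spermatids to mature, had 238, 252, 251 and 253 CPM in Irp1-/-, 274, 261, 250 and 242 in WT, and 245, 248 and 245 in Irp2-/-. All 3 genotypes overlapped, and WT spread the most, from 242 to 274 CPM. The log2 fold change from WT was -0.05 in Irp1-/- (95% interval -0.14 to 0.03) and -0.06 in Irp2-/- (-0.16 to 0.04). Irp1-/- replicate 1 stood apart from the other samples of its group.

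Rfx2 (chr17:56775897-56831013) lay on the other side of WT from Mybl1 in Irp1-/-. It had 526, 533, 539 and 479 CPM in Irp1-/-, 523, 495, 487 and 464 in WT, and 458, 488 and 487 in Irp2-/-. Here 3 Irp1-/- samples lay above all other samples, and replicate 7 lay among the rest. Against WT the log2 fold change was 0.07 in Irp1-/- (95% interval -0.01 to 0.16) and -0.04 in Irp2-/- (-0.14 to 0.06). Of Irp1-/- over Irp2-/- it was 0.12 (SE 0.049, 95% interval 0.02 to 0.22), with an unadjusted p of 0.0241 and an adjusted p of 0.21 by edgeR. Without Irp1-/- replicate 7 it was 0.15, and the adjusted p of 0.0635 was the smallest of any member under any setting tried.

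Sox5 (chr6:143828425-144781977) encodes a SOX factor with a short form in spermatids. It had 189, 185, 189 and 174 CPM in Irp1-/-, 183, 179, 169 and 164 in WT, and 174, 165 and 175 in Irp2-/-. As for Rfx2, 3 Irp1-/- samples lay above all other samples and replicate 7 did not. The log2 fold change was 0.08 for Irp1-/- over WT (95% interval -0.01 to 0.17) and 0.10 for Irp1-/- over Irp2-/- (0.00 to 0.20, edgeR adjusted p = 0.296).

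Sox30 (chr11:45980310-46017994), which spermatids need to develop beyond the early round stage, had 352, 369, 338 and 317 CPM in Irp1-/-, 363, 367, 340 and 344 in WT, and 367, 382 and 362 in Irp2-/-. The 2 knockouts overlapped only through Irp1-/- replicate 2. Its log2 fold change was -0.04 in Irp1-/- (95% interval -0.13 to 0.05) and 0.07 in Irp2-/- (-0.02 to 0.16) against WT, and -0.11 for Irp1-/- over Irp2-/- (-0.21 to -0.00, edgeR adjusted p = 0.287).

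The remaining 3 members belong to the CREM group. Crem (chr18:3266048-3337748) had 188, 195, 183 and 187 CPM in Irp1-/-, 204, 195, 178 and 180 in WT, and 196, 182 and 176 in Irp2-/-. Each knockout lay within the WT range or within 2 CPM of it, at a log2 fold change of -0.01 (95% interval -0.10 to 0.08) in Irp1-/- and -0.03 (-0.14 to 0.08) in Irp2-/-. The counts are per gene, so the activator and the repressor transcripts that Crem makes cannot be told apart.

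Fhl5 (chr4:25199908-25242876) had 170, 168, 157 and 177 CPM in Irp1-/-, 164, 176, 175 and 180 in WT, and 176, 167 and 153 in Irp2-/-. The genotypes overlapped, and the log2 fold change from WT was -0.05 in Irp1-/- (95% interval -0.14 to 0.04) and -0.07 in Irp2-/- (-0.17 to 0.04). Fhl5 lies 14.9 Mb from the deleted Aco1 on chromosome 4. Of the 28 tested genes between them, 1 was called in Irp1-/- against WT, where 1.02% of all tested genes were.

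Kif17 (chr4:138250435-138301967) had 520, 588, 534 and 510 CPM in Irp1-/-, 576, 579, 552 and 531 in WT, and 527, 536 and 538 in Irp2-/-. Irp1-/- spanned the WT range on both sides, with replicate 2 the highest of all samples and replicate 7 the lowest. The log2 fold change from WT was -0.06 in both Irp1-/- (95% interval -0.14 to 0.03) and Irp2-/- (-0.16 to 0.03). The longest Kif17 transcript starts within Sh2d5 on the same strand, and Sh2d5 had 1.11 CPM on average. Kif17 lies 98.1 Mb from Aco1. Of the 662 tested genes between them, 18 were called in Irp1-/- against WT, where 1.02% of all tested genes were.

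**Figure D3:**
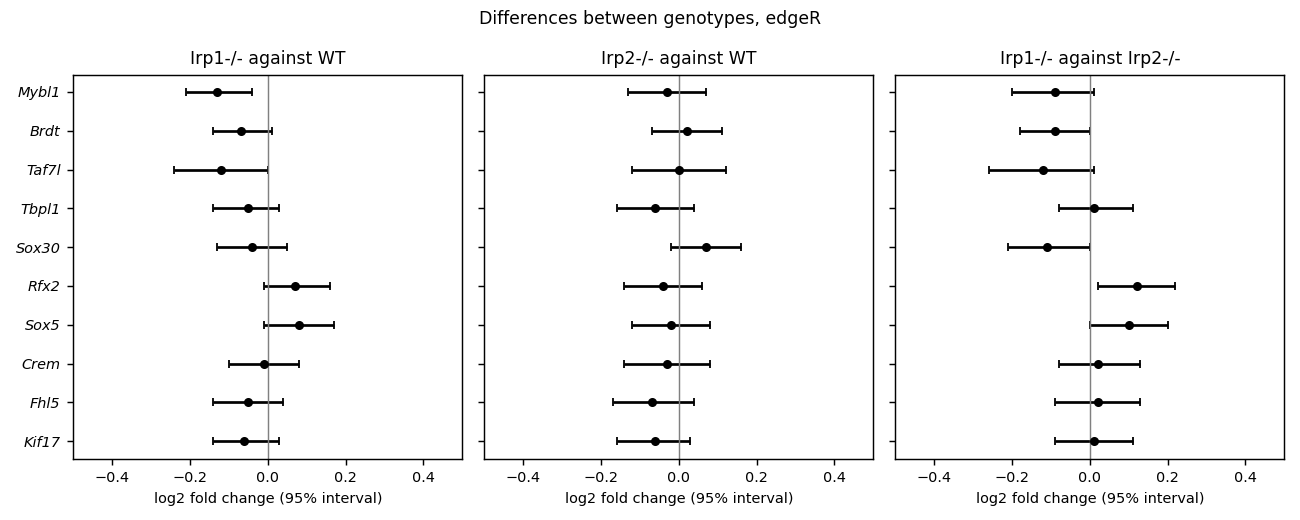
Log2 fold change (points) of each member with its 95% interval (bars) by edgeR, for Irp1-/- against WT, Irp2-/- against WT and Irp1-/- against Irp2-/-. Every interval lies between -0.26 and 0.22, and those of Mybl1 in Irp1-/- against WT (-0.21 to -0.04) and of Rfx2 between the knockouts (0.02 to 0.22) stay furthest clear of 0.

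Counted over the group, 0 of 10 members passed the adjusted threshold in each comparison, where 1.02% of all tested genes passed in Irp1-/- against WT, 1.21% in Irp2-/- against WT and 4.69% between the knockouts. DESeq2 also called 0 members in each. At an unadjusted p under 0.05, edgeR had 2 members in Irp1-/- against WT (Mybl1 and Taf7l) and 0 in Irp2-/- against WT. Between the knockouts it had 3 (Rfx2, Sox30 and Sox5). The same unadjusted threshold took in 12.1%, 9.42% and 16.3% of all tested genes by edgeR. In the same order DESeq2 had 1 (Mybl1), 0 and 4 (Rfx2, Sox30, Sox5 and Brdt). The DESeq2 shares over all genes were not counted. In Irp2-/- against WT no member's groups failed to overlap, against 9.31% of all tested genes. The median log2 fold change of the members was -0.05, -0.03 and 0.01, beside medians of -0.00, 0.00 and -0.00 over all genes. Both knockouts were set against the same WT samples, so those columns are not independent.

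Ratios between members do not depend on how libraries are scaled. Of the 45 pairs, 8 (17.8%) had ratios that did not overlap between Irp1-/- and WT, against 6.36% of all pairs of tested genes. In Irp2-/- against WT there were 6 (13.3%, against 9.82%), and between the knockouts 8 (17.8%, against 15.5%). The shares over all pairs take in weaker genes. Within a genotype the median coefficient of variation was 4.66% for members and 8.12% for all tested genes. For tested genes at least as high as the lowest member it was 4.52%. Whether the spread of genes bears on these shares was not tested. Pairs of genes of like level were not counted. Pairs share members, and Mybl1 took part in 4 of the 8 pairs that separated Irp1-/- from WT, Rfx2, Sox5 and Brdt in 3 each. The Rfx2 to Mybl1 ratio was 6.65, 6.71, 6.93 and 6.38 in Irp1-/-, 5.94, 5.77, 6.01 and 5.46 in WT, and 5.73, 5.66 and 5.88 in Irp2-/-. The Irp1-/- samples thus all lay above the other 7. The Sox5 to Mybl1 ratio was also highest in Irp1-/-, at 2.37 ± 0.0568 (SD, n = 4) in Irp1-/-, 2.05 ± 0.0802 (SD, n = 4) in WT and 2.07 ± 0.136 (SD, n = 3) in Irp2-/-. Rfx2 to Sox30 separated all 3 genotypes, at 1.44 to 1.59 in Irp1-/-, 1.35 to 1.44 in WT and 1.25 to 1.35 in Irp2-/-. These ratios were picked for their separation, so they are a description with no test.

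**Figure D4:**
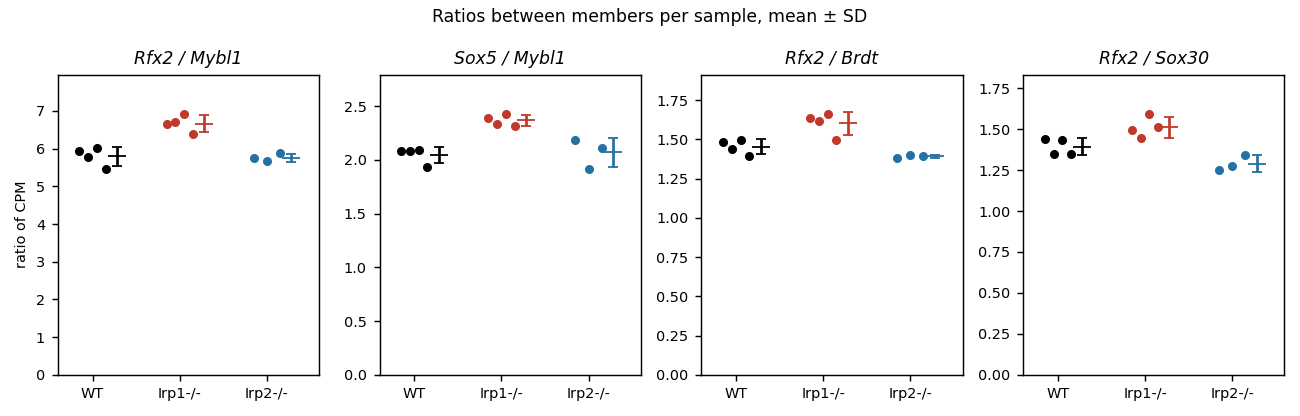
Ratio of CPM between pairs of members in each sample (points), with the mean and SD of each genotype and axes starting at 0. In the Rfx2 to Mybl1 panel the Irp1-/- samples lie between 6.38 and 6.93, above WT (5.46 to 6.01) and Irp2-/- (5.66 to 5.88).

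Genes described as targets of these regulators were counted in the same fits. Of 10 postmeiotic genes described as CREM targets, among them the protamine Prm2 (6407 CPM on average) and the transition protein Tnp2 (3465), 0 were called in any comparison. Their median log2 fold change from WT was -0.03 in Irp1-/- and -0.08 in Irp2-/-. Of 11 piRNA pathway genes described as A-MYB targets, which include Mael (1237 CPM) and Tdrd6 (978), 0 were called, the smallest adjusted p in Irp1-/- against WT being 0.425 by edgeR. All 11 had a log2 fold change below 0 in Irp1-/-, from -0.08 to -0.02, with a median of -0.05, as against 8 of 11 and a median of -0.03 in Irp2-/-. The spermatocyte markers described above lay lower in the same samples, and their part in this was not tested.

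Of 11 ciliary and flagellar genes of the kind RFX factors act on, 0 were called against WT in either line. Between the knockouts 1 was, the dynein heavy chain Dync2h1, with 163 ± 4.26 CPM (SD, n = 4) for Irp1-/- beside 189 ± 1.03 CPM (SD, n = 3) for Irp2-/- (log2 fold change -0.22, edgeR adjusted p = 0.00593). WT lay between them at 172 ± 10.2 CPM (SD, n = 4). Dync2h1 lies on chromosome 9, as does the deleted Ireb2, and whether this bears on its level was not tested. The abundant Ift140 and Ift172, parts of the transport machinery of cilia, averaged 657 and 496 CPM.

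**Figure D5:**
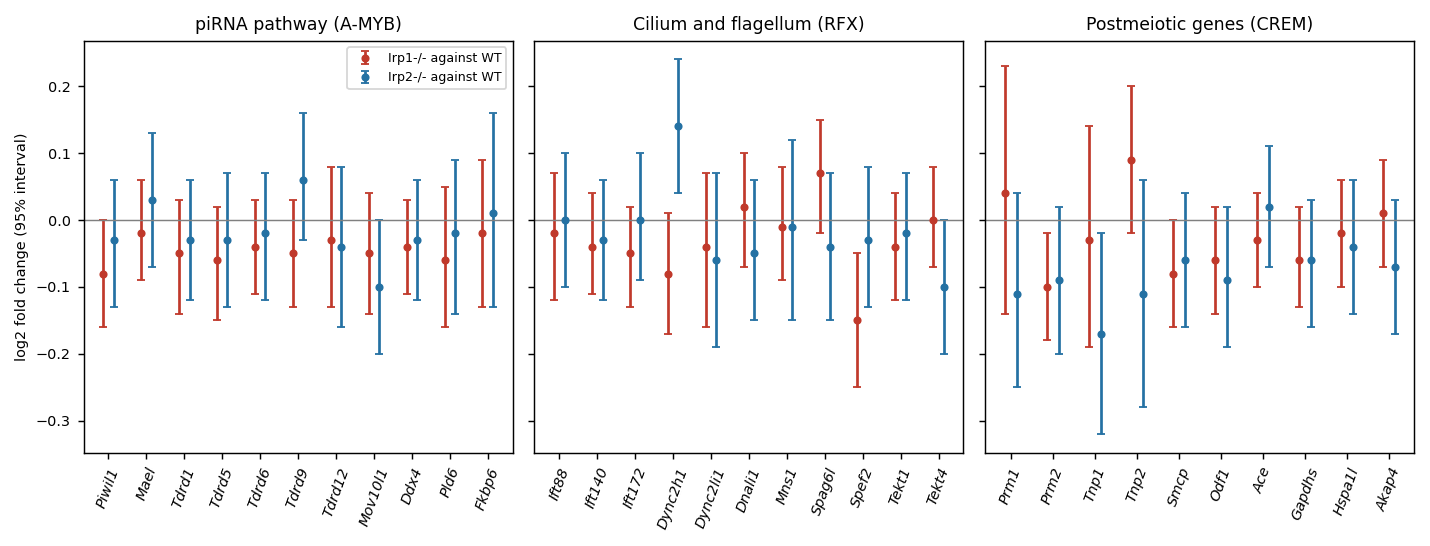
Log2 fold change from WT with 95% interval by edgeR for the piRNA pathway, ciliary and postmeiotic genes described as targets, in Irp1-/- (red) and Irp2-/- (blue). No gene shown was called, and all 11 piRNA pathway genes lie below 0 in Irp1-/- (from -0.08 to -0.02).

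Among 19 tested relatives of the members, 0 were called against WT by edgeR and 1 between the knockouts. This was Rfx1, with 185 ± 15.8 CPM (SD, n = 4) for Irp1-/-, 152 ± 4.91 CPM (SD, n = 3) for Irp2-/- and 161 ± 10.3 CPM (SD, n = 4) for WT. Its log2 fold change was 0.28 between the knockouts (edgeR adjusted p = 0.00579) and 0.20 for Irp1-/- over WT, where the adjusted p was 0.113 by edgeR and 0.0448 by DESeq2. It was 0.0015 by edgeR without Irp1-/- replicate 7 and 0.0367 without WT replicate 1. Of 20 tested other regulators of the germ line, 1 was called between the knockouts and 0 against WT. That was Sall4, a factor of spermatogonia, with 2.71 ± 0.241 CPM (SD, n = 4) for Irp1-/- beside 4.06 ± 0.52 CPM (SD, n = 3) for Irp2-/- (log2 fold change -0.58, edgeR adjusted p = 0.0316, and 0.108 by DESeq2). The call was lost without Irp1-/- replicate 1, 2 or 7 or Irp2-/- replicate 1 or 3 (adjusted p between 0.0545 and 0.121). The most abundant of this list were Phf7 (2345 CPM), a reader of histone marks in spermatids, and Dmrtb1 (657 CPM).

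The samples bore the markers of testis. Spermatogonial markers summed to 62.8 to 75.9 CPM in WT, round spermatid markers to 1066 to 1114 and elongating spermatid markers to 16266 to 17045, and 0 of these were called in a knockout against WT. In Irp1-/- round spermatid markers summed to 1081 to 1155 CPM and in Irp2-/- to 1030 to 1154. Elongating spermatid markers summed to 15495 to 18151 CPM in Irp1-/- and 13567 to 16600 in Irp2-/-, where all 5 had a log2 fold change below 0 (median -0.11). All 5 are also in the list of genes described as CREM targets, so the results of these lists share genes. Blood markers summed to 37.2 to 56.6 CPM in Irp1-/-, 30.1 to 37.1 in WT and 24.6 to 38.2 in Irp2-/-, with 0 called, and their part in the results was not tested. Sertoli cell markers summed to 103 to 108 CPM in Irp1-/-, 95 to 101 in WT and 94 to 107 in Irp2-/-. Leydig cell markers did so to 870 to 1073, 649 to 929 and 677 to 885 CPM. Between the knockouts 3 of 7 Sertoli markers (Amh, Fshr and Rhox5) and 1 of 5 Leydig markers (Insl3) were called, against 4.69% of all tested genes. Amh averaged 2.19 CPM in Irp1-/- and 1.2 CPM in Irp2-/-, and Fshr 2.19 and 1.24 CPM. The other Sertoli markers, Sox9, Wt1, Dhh and Gata1, had log2 fold changes from -0.06 to 0.06. Dync2h1, Rfx1 and Sall4 were called in the same comparison, and the part of the somatic markers in those results was not tested. By DESeq2 Insl3 was called (adjusted p = 0.00365), while Amh (0.0955), Fshr (0.107) and Rhox5 (0.0669) were not. Epididymal markers, a neighbouring tissue, reached at most 0.251 CPM in sum with Lcn5 at 0.

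For the 3 members of highest CPM, the genes whose log2 CPM followed them most closely over the 11 samples were taken from 16406. Kif17 was followed by 4930563D23Rik (Pearson r = 0.95), Ranbp6 (0.932) and Lrrc8b (0.917). For Rfx2 they were Ccnt1 (0.971), Ubxn10 (0.964) and its relative Rfx1 (0.961), and for Sox30 Slco5a1 (0.953), Cnot3 (0.95) and Paqr9 (0.92). The samples span 3 genotypes and share libraries, and these are the highest of many values, given as a description.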

How the data were processed

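Whole testis RNA was extracted, and stranded libraries of its polyadenylated mRNA were read from both ends. Counts per gene were deposited by the authors as raw, unnormalized values, made with an nf-core pipeline on mm10 with an iGenomes annotation; the counter is not given in the sources used here. Demultiplexing used bcl2fastq 2.20.0.422 per the submitters' processing notes. Groups came from the labels: 4 WT, 4 Irp1-/- and 3 Irp2-/- samples, with no column left unused.

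From the counts, edgeR 4.0.16 in R 4.3.3 was run on each pair of genotypes (TMM, its own filter on low counts, robust quasi-likelihood test), with Benjamini-Hochberg adjustment over 16002, 16154 and 16281 genes in Irp1-/- against WT, Irp2-/- against WT and Irp1-/- against Irp2-/-, and calls at an adjusted p under 0.05. CPM used the TMM library sizes of all 11 samples. At the median count of a member, counting error alone was 3.76% for Taf7l and 2.53% for Mybl1, beside within-genotype coefficients of variation of 5.75% and 3.31%, and at most 1.78% for the other 8 members. No pair of replicates agreed within sampling noise (chi-square per degree of freedom 1.97 to 6.75). The scripts were tested on simulated data. Alternatives were DESeq2 1.42.0, other scaling (RLE), other filters, a fit of all samples, a block on the replicate number and leaving out each sample.

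The members and the lists of other genes were chosen with earlier results of these data known. Named were the members, Aco1 and Ireb2, list genes that were called (otherwise the most abundant 1 or 2), and the 3 genes most like each of the 3 most abundant members (Pearson r of log2 CPM, prior count 2). The marker genes named beside a result and the ratios were chosen after their values were seen. Of the listed regulators, Gm4969 was not analysed here, and the level of 1 relative of the members is not reported here. Positions and transcript lengths came from GENCODE M21 (mm10), and promoters from RefSeq. Several members overlap weaker genes: Crem overlaps Gm6225 (6.72 CPM), Sox5 overlaps Sox5os3 (18.1) and Tbpl1 overlaps Slc2a12 (4.3), all on the opposite strand, and whether counting used strand is not given in the sources used here.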

Additional observations from a re-analysis of the deposited data

Results flagged for a closer look

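Tbpl1 in Irp1-/- replicate 1 stood apart from its group, at 238 CPM against 251 to 253 in the other 3 samples, a gap of 0.842 of the group's range. Over the 24 groups of 4 samples searched, chance alone gives about 1.2 such cases, so this count is near that level.

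For 3 genes of the lists, the effects of the 2 knockouts differed by edgeR's test of Irp1-/- against Irp2-/-. The log2 fold change of Irp1-/- over Irp2-/- was 0.28 for Rfx1 (adjusted p = 0.00579), -0.58 for Sall4 (adjusted p = 0.0316) and -0.22 for Dync2h1 (adjusted p = 0.00593). Rfx1 lay above WT in Irp1-/- by 0.20 and below it in Irp2-/- by -0.08 on the log2 scale, and Dync2h1 lay the other way round, at -0.08 and 0.14. Neither gene passed the edgeR test against WT in either line. Against the 4.69% of all tested genes called in this comparison, these 3 of the 71 list genes tested stand near the background.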

How the results depend on the processing

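None of the 10 members was called in the 3 comparisons by any of 40 alternative fits, and the smallest adjusted p was 0.0635. Of 400 member log2 fold changes under alternatives, 379 kept their sign and 21, all within 0.03 of 0, changed it. Taf7l in Irp2-/- against WT changed to -0.00 with RLE scaling, with at least 10 counts in every sample, with DESeq2 and in the fit of all 11 samples. Leaving out 1 sample, values ran from -0.04 to 0.03 for Crem in Irp1-/- against WT. In Irp2-/- against WT they ran from -0.08 to 0.01 for Crem, -0.04 to 0.01 for Sox5, -0.03 to 0.02 for Taf7l and -0.00 to 0.04 for Brdt. Between the knockouts they ran from -0.01 to 0.07 for Crem, -0.03 to 0.07 for Fhl5 and -0.03 to 0.03 for Kif17.

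For samples with the same replicate number, r of their deviations from the genotype mean was at most 0.0778. With means of only 3 or 4 samples, this cannot settle whether the numbers pair samples. With a replicate block, in which samples whose number the other genotype lacks add nothing (only 2 pairs remain in Irp1-/- against WT), Fhl5 was at -0.03 and Tbpl1 at -0.01 between the knockouts, Aco1 was at -0.28 in Irp1-/- against WT (adjusted p = 0.314 by edgeR, call lost), 439 of all genes were called in Irp1-/- against WT (164 without it), and 2 list genes were (Prm2 and Rfx1, 0 without it). DESeq2 called 1 list gene there, Rfx1. Leaving out 1 sample, the calls there ran from 0 to 1 for the lists and from 55 to 216 for all genes. They ran from 118 to 223 in Irp2-/- against WT and from 414 to 763 between the knockouts for all genes; the lowest counts came without Irp1-/- replicate 1, Irp2-/- replicate 2 and Irp2-/- replicate 2. The causes were not tested. Depth adds to the spread of Taf7l and Mybl1, the members of fewest counts, whose counting error was 3.76% and 2.53%; the effect of more depth was not tested.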
